A study of Mus musculus with 48 samples.

Results

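The genes described here are interleukin 2 (Il2), the chains of its receptor (Il2ra, Il2rb and Il2rg) and the transcription factors Stat5a and Stat5b that act downstream of that receptor. They were taken as the rows of 2 tables of transcription start clusters whose gene symbol was 1 of these 6 names, with the clusters of a gene added together. The table of primary CD4+ T cells held all 6 genes among 10219 (12 of 17272 clusters), and that of the T cell hybridoma held 4 of the 6 among 10098 (5 of 18025 clusters), with no row for Il2ra or Il2rg. Each listed cluster reached at least 3 RPM (reads per-million, here tags scaled to the library's total) in some library of its table, so a gene without a row may have been used at a lower level. It may also have been used from a cluster marked for several genes, which was not counted. Such a cluster lay near Il2rg in both systems and is described below. All 4 genes found in the hybridoma and all 6 found in CD4+ cells passed the filter on low values.

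Interleukin 2 is a growth factor that T cells make and release after their antigen receptor is triggered. Its high-affinity receptor joins an alpha chain (CD25, from Il2ra), which binds the cytokine but does not signal, to a beta chain (Il2rb) and the common gamma chain (Il2rg), which carry the signal through the kinases Jak1 and Jak3 to STAT5A and STAT5B. The activated STAT5 proteins enter the nucleus and raise Il2ra and inhibitors of the pathway such as Cish, so production of the cytokine and the means to sense it are coupled. PD-1 is an inhibitory receptor that T cells display after activation.

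The study measured capped 5′ ends of RNA by CAGE, which counts tags at transcription start sites, in 48 libraries of T cells triggered through the antigen receptor with or without engagement of PD-1. DO11.10 hybridoma cells (26 libraries, BALB/c x AKR/J), an immortal fusion of a T cell with a tumour line whose receptor recognises an ovalbumin peptide, were given 0, 1, 10, 100, 1000 or 10000 nM of pOVA. CD4+ T cells of BALB/cCrSlc mice (22 libraries) were given 0, 10, 100, 1000 or 10000 ng/ml of 2C11, an antibody to the CD3 part of the receptor. Every dose was run with and without PD-1 engagement, in 3 libraries a group at 10000 and 2 at every other dose; the labels do not say how PD-1 was engaged, how long cells were stimulated, or whether libraries of a group came from separate cultures or animals, so the p-values measure only the spread between these libraries.

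Libraries held 7.79 to 19.7 M tags in the hybridoma and 4.42 to 22.8 M tags in CD4+ cells. Of 10 T cell markers, 9 were in the hybridoma table (Cd4 had no row) and 10 in the CD4+ table. All 12 B cell markers had rows in both tables. In the hybridoma their summed level was 1212 RPM in library 2 of dose 0 without engagement and 982 RPM at most with it, against 85.9 to 286 RPM at all other doses, so both groups at dose 0 hold a library that stands apart. In CD4+ cells the sum was 864 to 1236 RPM in engaged libraries at 100 to 10000 ng/ml and 544 to 925 RPM in unengaged ones.

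Il2 stood apart from the other members in both systems, rising from little or nothing to its highest level at the top dose and lying lower with PD-1 engagement at every dose at which it was clearly detected. Its single start cluster, on the minus strand of chromosome 3 (mm9 chr3:37024875-37024878 in the CD4+ table), is 4 bases wide. RefSeq holds 1 start of the gene, and the 250 bases before it (GRCm38.p6, chr3:37125955-37126204, minus strand) are shown because the response of Il2 is described next. The RefSeq start and the measured cluster were matched by symbol, not by position. Capitals mark GGAAA or its complement TTTCC, the core that NFAT factors recognise, and the TATA box TATAAA.

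Il2 upstream: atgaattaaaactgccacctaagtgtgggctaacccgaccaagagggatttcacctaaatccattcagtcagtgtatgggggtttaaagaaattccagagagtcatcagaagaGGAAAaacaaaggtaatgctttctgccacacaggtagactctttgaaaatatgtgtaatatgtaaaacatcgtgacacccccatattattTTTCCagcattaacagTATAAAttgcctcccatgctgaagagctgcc

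The Il2 window held 2 NFAT cores, at positions -137 and -47 from the start, and a TATA box at -31. Of 32851 upstream windows of this length in the RefSeq table, 55.6% hold GGAAA on either strand and 12.4% hold TATAAA. Neither TGANTCA, the AP-1 element (6.75% of windows), nor TTCNNNGAA, the STAT element (7.02% of windows), was matched on either strand. A match of letters is not evidence that a factor binds.

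In the hybridoma Il2 was at 0 tags in every library at 0, 1 and 10 nM, with and without engagement. Without engagement it was 1.51 and 1.37 RPM at 100 nM, 4.69 and 4.48 RPM at 1000 nM, and 9.65, 9.98 and 7.71 RPM at 10000 nM. With engagement it was 0.160 and 0.370 RPM at 100 nM, 1.72 and 1.80 RPM at 1000 nM, and 2.27, 2.39 and 2.03 RPM at 10000 nM. At each of the 3 upper doses every engaged library was below every unengaged one, and engaged cells at 10000 nM stayed below unengaged cells at 1000 nM. Since 3 tags over both dose 0 libraries amount to 0.108 RPM, the level at 10000 nM was at least 84.3-fold higher than at dose 0, and that with engagement at least 21.1-fold higher than in engaged cells at dose 0.

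In CD4+ cells Il2 was already detected without stimulation, at 1.501 and 1.607 RPM. It was 3.13 and 1.80 RPM at 10 ng/ml, 4.45 and 7.44 RPM at 100 ng/ml, 50.2 and 73.0 RPM at 1000 ng/ml, and 72.1, 94.1 and 71.6 RPM at 10000 ng/ml. With engagement the values were 1.39 and 1.38 RPM at dose 0, 1.14 and 2.17 RPM at 10 ng/ml, 2.94 and 2.77 RPM at 100 ng/ml, 36.1 and 41.7 RPM at 1000 ng/ml, and 43.4, 55.3 and 45.2 RPM at 10000 ng/ml. Groups with and without engagement overlapped at 10 ng/ml and were apart at all other doses, by little at dose 0. The mean at the top dose was 51.0 times that at dose 0 without engagement and 34.6 times with it. Fewer cells making Il2 and less RNA per cell cannot be told apart in these bulk libraries.

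**Figure D1:**
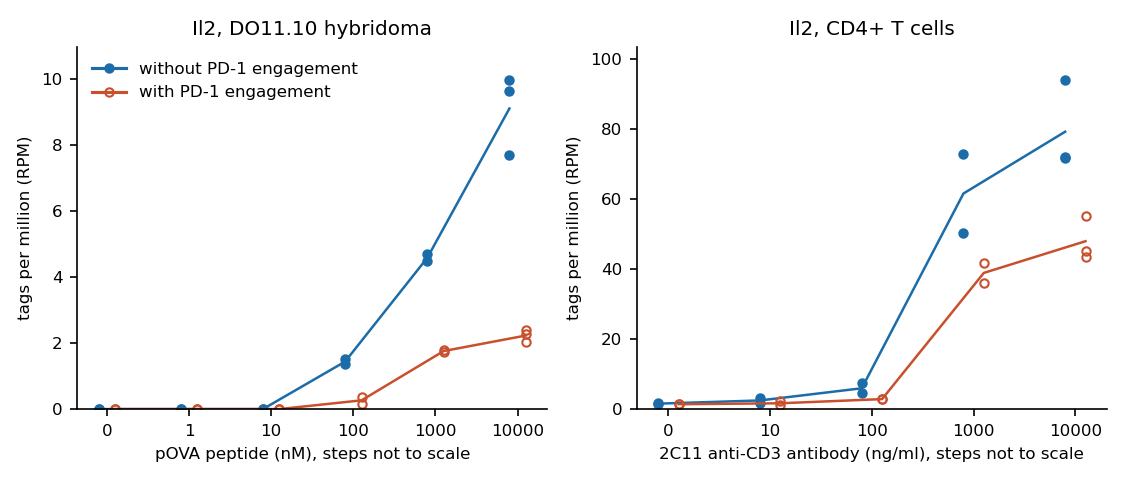
Il2 in RPM by dose in the hybridoma (left) and CD4+ T cells (right); points are libraries, lines join group means, filled blue without and open orange with PD-1 engagement. Engaged libraries lie below unengaged ones at the upper 3 doses in both systems (2.03 to 2.39 against 7.71 to 9.98 RPM at 10000 nM).

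Tests used limma on log2(RPM + 1), with p-values adjusted over all genes by the Benjamini-Hochberg method and calls at adjusted p under 0.05. Differences below are on that log2 scale, which understates changes of low genes such as Il2 in the hybridoma. At 10000 nM against dose 0, 3 of the 4 members in the hybridoma were called (Il2 and Il2rb higher, Stat5a lower), where 28.8% of all 10094 genes tested were called. At 10000 ng/ml against dose 0, 4 of the 6 members in CD4+ cells were called (Il2 and Il2ra higher, Il2rb and Stat5b lower), where 67.7% of all 10217 genes were, so the number of members called was close to the background there. Scaling bears on the split of calls. Of the genes called, 71.9% were lower in the hybridoma and 59.3% in CD4+ cells, and 52.5% and 51.7% with quantile normalization.

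Il2 rose by 3.33 ± 0.17 (SE, limma adjusted p = 5.67e-11) at 10000 nM in the hybridoma, 2.48 at 1000 nM (adjusted p = 2.27e-08) and 1.29 at 100 nM (adjusted p = 0.000239). At the 2 lower of these doses 30.6% and 6.03% of all genes were called. The further step from 1000 to 10000 nM did not pass the test (0.85, adjusted p = 0.219). In CD4+ cells it rose by 4.96 ± 0.22 (SE, limma adjusted p = 3.78e-13) at the top dose and already by 1.41 at 100 ng/ml (adjusted p = 0.000228), where 26.4% of genes were called. The step from 100 to 1000 ng/ml was the largest between neighbouring doses in CD4+ cells, at 3.18 (adjusted p = 1.45e-08, with 41.5% of genes called). Interpolated on log dose, the mean passed midway between dose 0 and the top dose at 979 nM in the hybridoma without engagement and 370 nM with it. In CD4+ cells the same point was 416 ng/ml without and 403 ng/ml with engagement. The unengaged hybridoma mean was highest at the last dose, so its midpoint depends on where the dose range ends.

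With engagement, mean Il2 in the hybridoma was 81.6% lower at 100 nM, 61.6% lower at 1000 nM and 75.5% lower at 10000 nM. The mean difference over the 5 stimulated doses was -0.72 ± 0.08 (SE, limma adjusted p = 5.26e-05). Libraries at 0 tags below 100 nM enter this SE, which may thus be too small. Il2 was the only member called in the hybridoma, where 0.931% of all genes were called. By single doses it was called at 100 nM (-0.95, adjusted p = 0.0248), 1000 nM (-1.02, adjusted p = 0.0451) and 10000 nM (-1.64, adjusted p = 1e-05), where 0.495%, 0.0793% and 0.406% of genes were called. The calls at 100 and 1000 nM were lost when any 1 of their 4 libraries was left out (adjusted p of 0.0611 to 0.392 and 0.279 to 0.441), and that at 1000 nM also with a pseudocount of 0.25 (0.497), a filter of 3 RPM (0.0664) and edgeR (0.136). The call at 1000 nM was lost as well without single libraries of many other groups, which share the spread (limma adjusted p of 0.0549 to 0.091). edgeR and DESeq2 on recovered whole tags gave adjusted p = 1.00 and 0.773 for the mean over all stimulated doses, in which both groups are at 0 tags at 1 and 10 nM. Over 100 to 10000 nM only, a contrast chosen after seeing those zeros, the difference was -1.20 with limma (adjusted p = 1e-06), -1.94 with edgeR (6.38e-05) and -1.96 with DESeq2 (8.14e-11), with 1.41% of genes called by limma. Since all libraries of dose 0 are at 0 tags, whether the difference under stimulation exceeds that at dose 0 cannot be tested for Il2 in the hybridoma.

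In CD4+ cells mean Il2 with engagement was 52.0% lower at 100 ng/ml, 36.8% lower at 1000 ng/ml and 39.5% lower at 10000 ng/ml. The mean difference over the 4 stimulated doses was -0.63 ± 0.11 (SE, limma adjusted p = 0.000264), and -0.49 (adjusted p = 0.00174) after quantile normalization. At single doses Il2 was called at 100 ng/ml (-0.82, adjusted p = 0.0114) and 10000 ng/ml (-0.71, adjusted p = 0.0285) but not at 1000 ng/ml (-0.63, adjusted p = 0.0621). At these doses 39.2%, 8.48% and 22.7% of genes were called. The call at 100 ng/ml was lost without unengaged library 2 (adjusted p = 0.205) and with quantile normalization, edgeR or DESeq2 (0.0576 to 0.0917), and that at 10000 ng/ml without any 1 of its libraries except engaged library 2 (0.0539 to 0.110) and with a pseudocount of 0.25 (0.0545). The difference under stimulation was not shown to exceed that at dose 0 (-0.54 ± 0.26, SE, limma adjusted p = 0.590).

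Il2ra, the alpha chain that raises the affinity of the receptor, was the 1 receptor chain called higher with dose in CD4+ cells. Its main cluster lay on the plus strand of chromosome 2 (mm9 chr2:11564432-11564478), and 2 small clusters lay 187 and 498 bases downstream. The 250 bases before the RefSeq start (GRCm38.p6, chr2:11642542-11642791, plus strand) are shown beside those of Il2 because the starts of both genes rose with dose. Capitals mark the same motifs.

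Il2ra upstream: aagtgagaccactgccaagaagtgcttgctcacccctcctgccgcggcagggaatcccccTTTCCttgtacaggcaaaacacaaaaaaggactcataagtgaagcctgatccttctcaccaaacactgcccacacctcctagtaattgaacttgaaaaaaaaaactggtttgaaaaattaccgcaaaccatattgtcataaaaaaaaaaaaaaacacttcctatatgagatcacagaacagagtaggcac

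This window held 1 NFAT core, at position -190, and no match to the TATA box, AP-1 or STAT motifs on either strand. Without engagement Il2ra was 91.2 and 101 RPM at dose 0, 102 and 85.3 RPM at 10 ng/ml, 168 and 196 RPM at 100 ng/ml, 436 and 487 RPM at 1000 ng/ml, and 435, 459 and 420 RPM at 10000 ng/ml. With engagement it was 81.4 and 71.5 RPM at dose 0, 84.1 and 81.8 RPM at 10 ng/ml, 107 and 116 RPM at 100 ng/ml, 346 and 393 RPM at 1000 ng/ml, and 423, 461 and 408 RPM at 10000 ng/ml. Engaged libraries were lower than all unengaged ones at 0 to 1000 ng/ml, and the 2 groups overlapped at 10000 ng/ml.

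Without engagement Il2ra rose by 2.18 ± 0.10 (SE, limma adjusted p = 4.28e-13) at 10000 ng/ml, by 2.25 at 1000 ng/ml, where 61% of genes were called, and by 0.91 at 100 ng/ml. Its unengaged level did not rise further after 1000 ng/ml. With engagement the mean was 369 RPM at 1000 ng/ml and 431 RPM at 10000 ng/ml, and the libraries of these doses did not overlap. Its midpoint was 202 ng/ml without and 355 ng/ml with engagement. With engagement it was 38.6% lower at 100 ng/ml (-0.70 ± 0.10, SE, limma adjusted p = 0.000172), 19.9% lower at 1000 ng/ml (-0.32, adjusted p = 0.0344) and 1.66% lower at 10000 ng/ml (-0.03, adjusted p = 0.904; 95% interval -0.20 to 0.15). The call at 1000 ng/ml did not hold with quantile normalization (adjusted p = 0.0638), edgeR (0.360) or DESeq2 (0.368), nor without either unengaged library or engaged library 1 (0.0533 to 0.253). Il2ra also marks regulatory T cells. Of 8 markers of those cells 4 were in the CD4+ table (Foxp3, Ikzf4, Ctla4 and Gpr83), with a sum of 100 to 114 RPM at dose 0 and 61.3 to 63.5 RPM at 10000 ng/ml without engagement. By the mean over doses 1 of the 4 was called with engagement (Foxp3, -0.20, limma adjusted p = 0.0426) and 0 with quantile normalization, edgeR or DESeq2; the part of these cells in the Il2ra difference was not tested.

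Many start clusters with no gene symbol rose around Il2ra. Of 13 within 100 kb that were tested in CD4+ cells, 12 were higher at 10000 ng/ml than at dose 0, where 26.2% of all clusters were called higher. Clusters were listed only if some library reached 3 RPM, so weak ones that did not rise could not appear. The count thus cannot show how often clusters around Il2ra rose. All 10 that lay downstream, from 2.85 to 30.4 kb, were higher by 0.70 to 1.83, and 8 of these 10 were on the strand of Il2ra. RefSeq gives the gene a length of 50.4 kb (GRCm38.p6), which would place these within it, but exon and intron were not determined because no mm9 annotation was used here. The nearest, 2845 bases downstream, went from 0.50 to 4.58 RPM (mean of 2 and 3 libraries), and was 2.44 RPM with engagement at the top dose. A cluster 25.6 kb upstream on the same strand went from 0.86 to 4.33 RPM. With engagement, by the mean over doses, 2 of the 13 were lower, where 28% of all clusters were called lower.

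**Figure D2:**
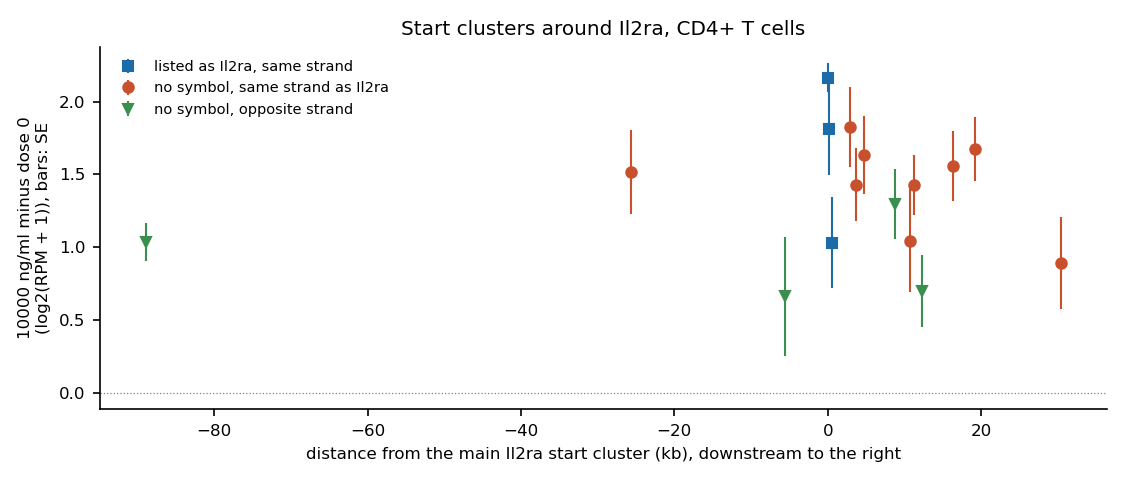
Change at 10000 ng/ml against dose 0 without engagement (log2(RPM + 1), bars are SE) of start clusters within 100 kb of Il2ra in CD4+ T cells, by distance from the main cluster in kb. All lie above 0, and the main cluster is the highest, at 2.17. Clusters under 3 RPM in every library were not listed.

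Il2rb, the beta chain shared with the interleukin 15 receptor, moved in opposite directions in the 2 systems. It had 1 cluster in each, on the minus strand of chromosome 15 (mm9 chr15:78325474-78325497 in the CD4+ table). In the hybridoma without engagement it was 7.88 and 8.14 RPM at dose 0, 9.17 and 4.26 RPM at 1 nM, 10.2 and 9.95 RPM at 10 nM, 36.2 and 28.2 RPM at 100 nM, 37.9 and 25.1 RPM at 1000 nM, and 47.7, 37.0 and 32.0 RPM at 10000 nM. With engagement it was 7.89 and 7.22 RPM at dose 0, 5.75 and 5.42 RPM at 1 nM, 7.49 and 6.05 RPM at 10 nM, 21.7 and 19.5 RPM at 100 nM, 40.6 and 26.2 RPM at 1000 nM, and 36.6, 37.7 and 23.2 RPM at 10000 nM. The largest step between neighbouring doses was that from 10 to 100 nM, and groups with and without engagement were apart at 10 and 100 nM and overlapped at the other doses. Its midpoint was 40.3 nM without and 91.2 nM with engagement, at lower doses than the midpoints of Il2.

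The rise of Il2rb in the hybridoma was 2.13 ± 0.26 (SE, limma adjusted p = 7.70e-06) at 10000 nM, a ratio of means of 4.86, and 1.94 (adjusted p = 3.61e-05) within engaged cells, where 26.4% of genes were called. The mean engagement difference of -0.29 ± 0.12 did not pass the test (limma adjusted p = 0.707). Libraries of the same dose and number deviated together in the hybridoma, and with those pairs as a replicate block the same difference passed it (limma adjusted p = 0.0231). The block also raised the calls over all genes, with 201 genes higher and 456 lower against 6 and 88 without it. No single dose passed without the block, the largest difference being -0.61 (adjusted p = 1.00) at 100 nM.

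In CD4+ cells Il2rb was 540 and 581 RPM at dose 0, 487 and 538 RPM at 10 ng/ml, 589 and 581 RPM at 100 ng/ml, 438 and 424 RPM at 1000 ng/ml, and 303, 321 and 326 RPM at 10000 ng/ml. Engaged libraries had 471 and 435 RPM at dose 0, 455 and 473 RPM at 10 ng/ml, 396 and 437 RPM at 100 ng/ml, 374 and 385 RPM at 1000 ng/ml, and 367, 303 and 279 RPM at 10000 ng/ml. It was lowest at the top dose in both series, and the engaged groups were below the unengaged ones at all doses but 10000 ng/ml. The fall was 0.82 on the log2 scale (-0.82 ± 0.09, SE, limma adjusted p = 1.48e-07), a mean 1.77-fold lower at 10000 ng/ml than at dose 0. The mean engagement difference was small, -0.21 ± 0.05 (SE, limma adjusted p = 0.00188), and was not called by edgeR (-0.05, adjusted p = 0.404) or DESeq2 (-0.06, adjusted p = 0.365).

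Fitted in 1 model over both tables, the change of Il2rb from dose 0 to the top dose differed between systems by -2.95 ± 0.29 (CD4+ minus hybridoma, SE, limma adjusted p = 1.16e-09). That of Il2 differed by 1.63 (adjusted p = 9.33e-06) and that of Stat5a by 0.63 (adjusted p = 0.0246), so 3 of the 4 shared members were called, where 39.9% of 9350 genes were. The log2(RPM + 1) scale holds down a rise from 0 tags, so the 1.63 does not show a stronger rise of Il2 in CD4+ cells. As a ratio to dose 0 its rise was at least 84.3-fold in the hybridoma and 51.0-fold in CD4+ cells. The systems differ in cell, stimulus and dose unit at once, and these cannot be told apart. The mean engagement difference of Il2 did not pass the test of a difference between systems (0.09 ± 0.13, limma adjusted p = 0.665), nor did that at the top dose (0.93 ± 0.24, adjusted p = 0.0504). Of all genes 13.1% and 0.834% passed these tests. The hybridoma mean includes 1 and 10 nM, where Il2 was at 0 tags with and without engagement and no difference could appear. The test of the mean thus cannot decide whether the systems differ. At the top dose mean Il2 was 75.5% lower with engagement in the hybridoma and 39.5% lower in CD4+ cells.

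Il2rg, the common gamma chain shared by the receptors for interleukins 2, 4, 7, 9, 15 and 21, was listed at low level in CD4+ cells. Its cluster (mm9 chrX:98462075-98462137, minus strand) had 3.50 and 3.79 RPM at dose 0 and 1.88, 2.06 and 3.30 RPM at 10000 ng/ml, and 2.90 and 3.84 RPM and 1.24, 1.69 and 1.84 RPM with engagement. Over all 22 libraries it ranged from 0.904 to 3.99 RPM. The difference at 10000 ng/ml did not pass the test (-0.47 ± 0.25, SE, limma adjusted p = 0.111), although it did with a replicate block (adjusted p = 0.0391) and without unengaged library 3 of 10000 ng/ml (0.0415). The mean engagement difference was -0.42 ± 0.13 (limma adjusted p = 0.0156). That call was lost with edgeR (0.106), DESeq2 (0.147) and a B cell marker covariate (0.0590), and without unengaged library 2 of 10 ng/ml (0.0523) or engaged library 1 of 100 ng/ml (0.0520).

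A cluster 1440 bases upstream of the Il2rg row, on the same strand (mm9 chrX:98463528-98463564), was far stronger but carried a mark for several genes without naming them, so it is not counted as Il2rg. It ended 5863 bases before the first Med12 cluster, and RefSeq places the start of Il2rg 5836 bases before that of Med12 (GRCm38.p6). In CD4+ cells it was 437 and 446 RPM at dose 0 and 379, 393 and 402 RPM at 10000 ng/ml, a difference that did not pass the test (-0.17, adjusted p = 0.0792). In the hybridoma it was 196 and 192 RPM at dose 0 and 266, 282 and 261 RPM at 10000 nM, 0.47 higher (limma adjusted p = 0.0011 over all clusters, 30% of which were called). The genes behind this cluster were not determined, so the values given for Il2rg are those of the row that bears its symbol. Neither the low level of that row in CD4+ cells nor the lack of one in the hybridoma shows that Il2rg was little used.

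**Figure D3:**
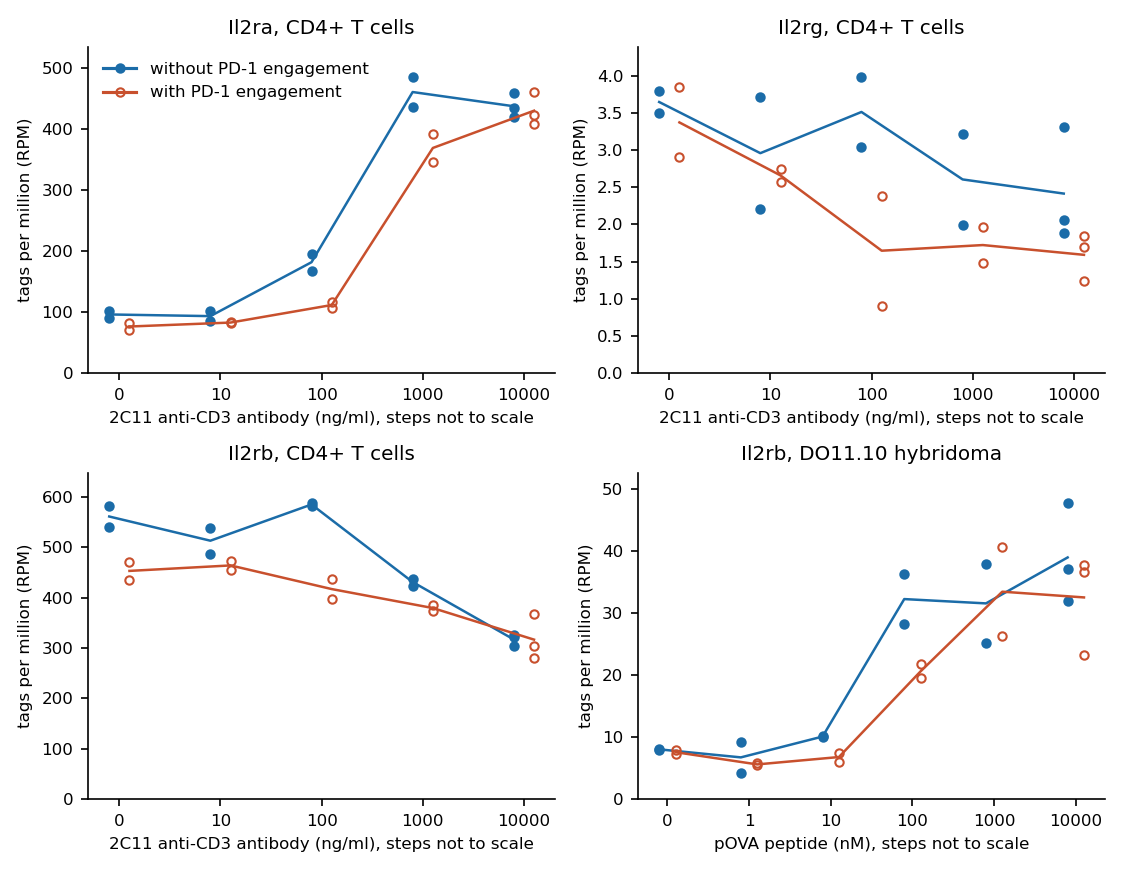
Receptor chains in RPM by dose, for Il2ra, Il2rg and Il2rb in CD4+ T cells and Il2rb in the hybridoma; points are libraries, lines join group means, filled blue without and open orange with PD-1 engagement. Il2ra rises from near 96.2 to 438 RPM and Il2rb falls from 561 to 317 RPM in CD4+ cells without engagement, while Il2rb rises from 8.01 to 38.9 RPM in the hybridoma.

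Stat5a and Stat5b, neighbouring genes on chromosome 11 whose proteins carry the signal of the receptor to the nucleus, were each used from more than 1 start in CD4+ cells. Stat5a without engagement was 126 and 127 RPM at dose 0, 102 and 123 RPM at 10 ng/ml, 133 and 156 RPM at 100 ng/ml, 166 and 172 RPM at 1000 ng/ml, and 130, 145 and 130 RPM at 10000 ng/ml. Engaged libraries had 89.7 and 93.7 RPM at dose 0, 95.7 and 104 RPM at 10 ng/ml, 88.6 and 103 RPM at 100 ng/ml, 108 and 126 RPM at 1000 ng/ml, and 110, 104 and 82.7 RPM at 10000 ng/ml. Engaged libraries were below all unengaged ones at every dose except 10 ng/ml.

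Stat5a was not called at 10000 ng/ml by limma (0.10 ± 0.12, SE, adjusted p = 0.475), was called higher by edgeR (0.24, adjusted p = 0.0233) and DESeq2 (0.26, adjusted p = 0.00807), and turned to -0.02 with quantile normalization. It rose at 1000 ng/ml (0.42, limma adjusted p = 0.0078; 0.0655 with quantile normalization). Its mean engagement difference was -0.44 ± 0.06 (SE, limma adjusted p = 3.20e-05), and it was also lower at dose 0 (-0.46, adjusted p = 0.0256; 0.130 to 0.247 with quantile normalization, edgeR and DESeq2, and 0.0817 to 0.156 without any 1 of the 4 libraries). In the hybridoma it was 9.09 and 12.4 RPM at dose 0 and 7.34, 7.09 and 6.68 RPM at 10000 nM without engagement. That fall (-0.53 ± 0.19, limma adjusted p = 0.0383) was lost without library 2 of dose 0, where B cell markers were high (0.355), and without any library of the top dose (0.0563 to 0.101). The pairing of libraries by number as a replicate block also gave adjusted p = 0.0861. Without engagement Stat5a was also called lower at 1000 nM than at dose 0 (-0.71, limma adjusted p = 0.0141), where 30.6% of genes were called. Without library 2 of dose 0 that fall was -0.51. At 1000 nM Stat5a was 6.86 and 5.38 RPM without and 11.8 and 8.09 RPM with engagement, groups that did not overlap. The difference of 0.61 was called with a replicate block of same dose and number (limma adjusted p = 0.0137) and not without (0.702); with the block 537 genes were higher and 204 lower at that dose, against 1 and 7 without it. The mean engagement difference of Stat5a in the hybridoma was 0.10 and not called (limma adjusted p = 1.00); it differed from that in CD4+ cells by -0.54 ± 0.11 (adjusted p = 0.00506).

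The starts of Stat5a gave different values at 10000 ng/ml, and the difference between starts was not tested. The main start (mm9 chr11:100721789-100721842, plus strand) moved by -0.01 (limma adjusted p = 0.933) at 10000 ng/ml. A start at -208 bases, upstream, was 2.29 and 2.53 RPM at dose 0 and 12.3, 13.5 and 11.4 RPM at 10000 ng/ml without engagement, and 7.24, 10.8 and 7.87 RPM at that dose with it. These 3 groups did not overlap. Over all clusters tested, 64.5% were called at that dose and 35.2% with engagement. The upstream start rose by 1.97 ± 0.21 (limma adjusted p = 1.98e-07) and was lower with engagement over the stimulated doses (-0.77, adjusted p = 9.92e-05). Another start, at -1214 bases, rose from a mean of 0.17 to 2.92 RPM (1.76, adjusted p = 5.11e-06). Neither upstream start reached 3 RPM, the level needed for listing, at dose 0 without engagement. Each was thus listed through other libraries, and the test of its rise is not independent of that selection.

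Stat5b without engagement was 188 and 186 RPM at dose 0, 193 and 204 RPM at 10 ng/ml, 182 and 236 RPM at 100 ng/ml, 178 and 180 RPM at 1000 ng/ml, and 94.0, 101 and 84.8 RPM at 10000 ng/ml. Engaged libraries had 151 and 134 RPM at dose 0, 158 and 165 RPM at 10 ng/ml, 139 and 118 RPM at 100 ng/ml, 102 and 84.0 RPM at 1000 ng/ml, and 98.8, 171 and 156 RPM at 10000 ng/ml. Engaged libraries were lower than unengaged ones up to 1000 ng/ml, and at 10000 ng/ml 2 of the 3 were higher than every unengaged library while the other lay among them. Without engagement the level stayed near that of dose 0 up to 1000 ng/ml and fell in the last step.

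The fall of Stat5b at 10000 ng/ml was -0.999 ± 0.163 (SE, limma adjusted p = 2.30e-05). Its engagement difference was -0.69 at 100 ng/ml (adjusted p = 0.00603), -0.95 at 1000 ng/ml (adjusted p = 0.00166) and 0.56 at 10000 ng/ml (adjusted p = 0.0226), and the last differed from that at dose 0 by 0.96 ± 0.23 (adjusted p = 0.0115), where 15.7% of all genes were called and their median was 0.24. That test was not passed with quantile normalization (0.0534) or edgeR (0.0705), nor without library 2 of dose 0, unengaged (0.0531) or engaged (0.0581). The call at 100 ng/ml was lost without unengaged library 2 (0.110), and with quantile normalization, edgeR or DESeq2 (0.0776 to 0.182). The call at 10000 ng/ml was lost without unengaged library 1 or 3 or engaged library 2 or 3 (0.0595 to 0.128). Since the direction turns at the top dose, the mean over doses (-0.34, adjusted p = 0.00366) does not describe any one dose. That mean was not called with quantile normalization (0.0744), a B cell marker covariate (0.0547), edgeR (0.156) or DESeq2 (0.0889).

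Stat5b had a second start 27991 bases downstream of the main one, and RefSeq lists starts 28011 bases apart. The main cluster was mm9 chr11:100711797-100711895 and the inner one chr11:100683828-100683883, both on the minus strand. The 250 bases before each RefSeq start (GRCm38.p6, chr11:100850582-100850831 and chr11:100822571-100822820) are shown because the values of the 2 starts are given apart and their windows differ in base composition, with 82.0% and 46.4% G or C. Capitals mark GGAAA, of which the inner window holds 2.

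Stat5b upstream, main: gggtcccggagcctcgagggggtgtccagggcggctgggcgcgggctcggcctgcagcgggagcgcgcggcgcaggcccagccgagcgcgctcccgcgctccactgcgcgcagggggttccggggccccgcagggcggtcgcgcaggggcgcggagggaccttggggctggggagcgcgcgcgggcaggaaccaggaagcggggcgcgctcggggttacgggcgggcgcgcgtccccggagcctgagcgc
Stat5b upstream, inner: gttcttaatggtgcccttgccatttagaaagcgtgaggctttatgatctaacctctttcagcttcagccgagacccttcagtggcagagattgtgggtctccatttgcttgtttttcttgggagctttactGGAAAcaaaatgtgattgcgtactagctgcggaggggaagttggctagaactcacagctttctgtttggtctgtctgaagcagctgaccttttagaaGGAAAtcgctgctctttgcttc

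The inner start was 27.7 and 25.7 RPM at dose 0, 11.8 and 12.6 RPM at 1000 ng/ml, and 9.38, 8.29 and 6.91 RPM at 10000 ng/ml. It had fallen at 1000 ng/ml, where 58.1% of clusters were called and the main start was not (means of 160 RPM at dose 0 and 167 RPM at 1000 ng/ml). At 10000 ng/ml the inner start was lower by 1.60 ± 0.16 (-1.60, limma adjusted p = 5e-08) and the main start by 0.91 (-0.91, adjusted p = 0.000168). The mean engagement difference was -0.04 (adjusted p = 0.755) at the inner start and -0.39 (adjusted p = 0.00353) at the main start; the difference between the 2 was not tested.

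In the hybridoma Stat5b was 21.8 and 34.4 RPM at dose 0 without engagement, the higher value in the library with high B cell markers, and 22.8, 20.6 and 20.4 RPM at 10000 nM. The groups overlapped in range, and the change did not pass the test (-0.35 ± 0.20, SE, limma adjusted p = 0.179), but did without library 1 of dose 0 (-0.67, adjusted p = 0.0288). At 1000 nM Stat5b was called lower (-0.72, limma adjusted p = 0.0176), where 30.6% of all genes were called. Without library 2 of dose 0 that difference was -0.40. Against engaged dose 0, engaged cells were called lower at 1000 nM (-0.80, adjusted p = 0.0158) and 10000 nM (-0.61, adjusted p = 0.0274). Of all genes 1464 and 1949 were called lower there. Engaged dose 0 also holds a library with high B cell markers. The mean engagement difference of Stat5b was -0.08 (adjusted p = 1.00).

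**Figure D4:**
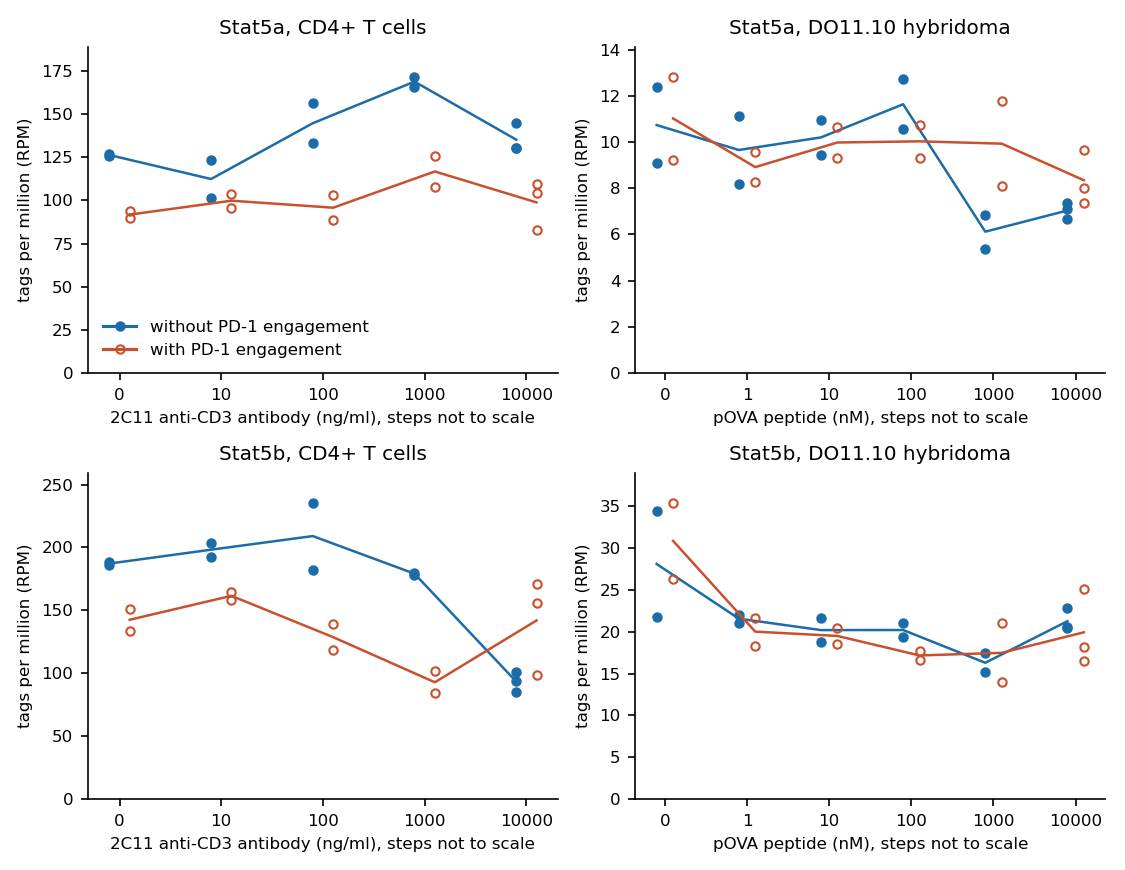
Stat5a and Stat5b in RPM by dose in CD4+ T cells (left) and the hybridoma (right); points are libraries, lines join group means, filled blue without and open orange with PD-1 engagement. In CD4+ cells engaged Stat5a lies between 82.7 and 126 RPM at all doses, and the order of the Stat5b groups turns at 10000 ng/ml.

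By the mean over stimulated doses all 6 members were lower with engagement in CD4+ cells, but 45.6% of all genes were called there, 41.2% lower, and the median of all genes was -0.14. Beside that median, Il2 (-0.63), Stat5a (-0.44) and Il2rg (-0.42) were lowest, followed by Stat5b (-0.34), Il2ra (-0.30) and Il2rb (-0.21). The value of Il2rg is that of its weak named row alone, without the stronger cluster upstream of it. With quantile normalization, which brought the median to 0 and the share of lower among called genes from 90.2% to 47.5%, 5 of the 6 were called lower. With edgeR and with DESeq2 3 of the 6 were, which were Il2, Il2ra and Stat5a. Of all 10217 genes, 1301 were called lower with quantile normalization, 1335 with edgeR and 1274 with DESeq2. At dose 0 itself 3 members (Il2ra, Il2rb and Stat5a) were called lower, where 14.4% of genes were called and the median was -0.23, and these 3 calls were each lost when any 1 of the 4 libraries was left out (0.0573 to 0.273). No member passed the test of the mean over stimulated doses against dose 0, which 0.0196% of genes did.

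B cell markers moved with engagement in CD4+ cells, where 10 of 12 were called higher by the mean over doses, and in the hybridoma 0 of 12 were called. With the level of B cell markers as a covariate, the CD4+ difference was -0.87 (limma adjusted p = 0.00027) for Il2, -0.35 (0.000986) for Il2ra, -0.26 (0.00448) for Il2rb and -0.62 (8.99e-06) for Stat5a. That of Il2rg was -0.47 (0.0590) and that of Stat5b -0.31 (0.0547). The covariate also moved the median of all genes, from -0.14 to -0.23, and the part of B cells in these differences was not tested.

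**Figure D5:**
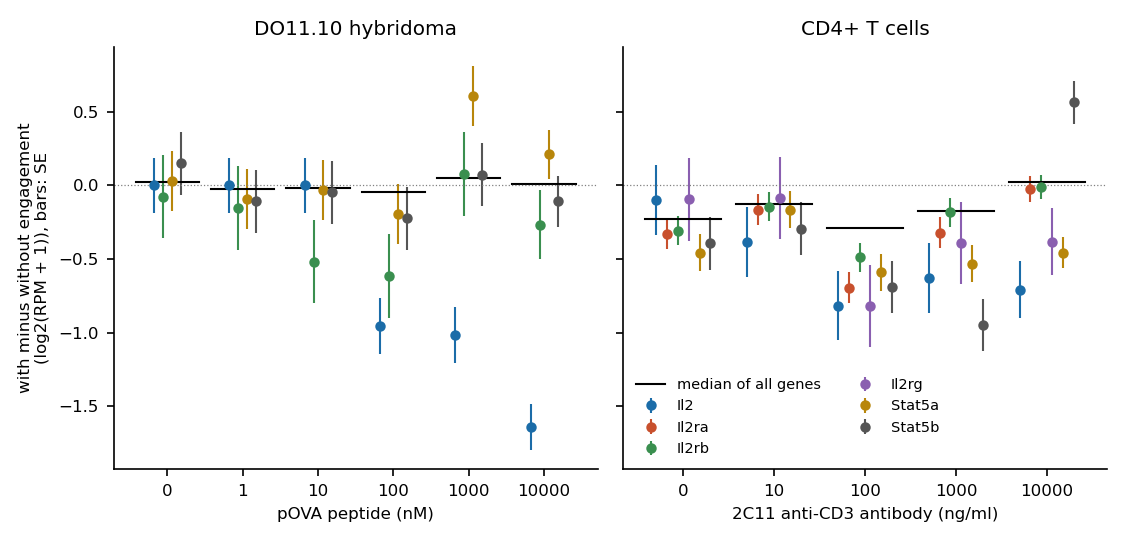
Engaged minus unengaged difference of each member (log2(RPM + 1), bars are SE) by dose in the hybridoma (left) and CD4+ T cells (right); black lines give the median of all genes. Il2 reaches -1.64 at 10000 nM, and Stat5b in CD4+ cells goes from -0.95 at 1000 ng/ml to 0.56 at 10000 ng/ml.

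Other genes of the pathway were taken from lists of known roles, and values are changes at the top dose unless engagement is named. At that dose 8.09% of all genes were called higher and 20.8% lower in the hybridoma, and 27.5% and 40.1% in CD4+ cells. Engagement counts are by the mean over stimulated doses, where 41.2% of all 10217 genes were called lower in CD4+ cells. With quantile normalization 1301 genes were lower there, and with edgeR 1335. In the hybridoma 0.931% of genes were called with engagement. Of 18 regulators of the Il2 gene, 10 rose and 2 fell in the hybridoma at the top dose (median 1.27, against -0.18 for all genes), and 9 rose and 8 fell in CD4+ cells (median 0.11, against -0.15). The early response factor Egr1 (5.73 in the hybridoma and 3.33 in CD4+ cells) and the AP-1 factors Fosl2 (2.87 and 2.69) and Fos (2.29 and 1.17) rose in both, and Nfatc2 (-1.01 and -0.98) and Nfatc3 (-0.69 and -1.52), which bind the Il2 promoter, fell in both. With engagement Fosl2 (-0.63, limma adjusted p = 0.0011) and Egr1 (-0.76, adjusted p = 0.0365) were the 2 regulators called in the hybridoma, and 14 of 18 were lower in CD4+ cells (8 with quantile normalization and 9 with edgeR).

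Of 10 inhibitors of the signal, 7 rose and 1 fell in CD4+ cells (median 0.69), led by the phosphatase gene Dusp6 (2.50), Cish (2.49) and Socs1 (2.03), the last 2 being STAT5-induced suppressors, with Pias1 (-1.003) falling. In the hybridoma 2 of 7 rose and 2 fell, with Socs1 at 3.52, Dusp5 at 1.26, and Ptpn6 (-0.66) and Dusp6 (-0.84) falling. With engagement 9 of 10 were lower in CD4+ cells (7 with quantile normalization, 6 with edgeR) and 1 of 7 in the hybridoma, which was Socs1 (-0.45, limma adjusted p = 0.0335). Among 16 STAT5 target genes in CD4+ cells 9 rose, with Lif (5.63), Myc (3.35) and Lta (2.55) highest, and 6 fell, with Ccnd3 (-0.82), Pim2 (-0.81) and Bcl6 (-0.70) lowest; in the hybridoma 2 of 12 rose (Tnfrsf4, 1.79, and Lta, 1.67) and 2 fell (Ccnd3, -1.24, and Osm, -0.64, the latter not called with quantile normalization, edgeR or DESeq2). With quantile normalization 4 of these 12 were higher and 1 lower, and with edgeR and with DESeq2 5 were higher and 1 lower. With engagement 14 of the 16 were lower in CD4+ cells (8 with quantile normalization, 7 with edgeR). In the hybridoma 0 of 12 were called (1 lower with quantile normalization).

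Of 10 tested kinases and adaptors that carry the signal, 6 fell and 1 rose in the hybridoma, with Pik3cd (-1.15), Pik3r1 (-0.77) and Grb2 (-0.73) lowest and Jak1 (0.37) higher; with edgeR and with DESeq2 4 were lower and 1 higher. In CD4+ cells 6 of 10 fell and 0 rose (5 and 1 with edgeR and with DESeq2), with Pik3r1 (-1.61), Pik3cd (-1.59) and Jak1 (-1.56) lowest. Jak1 thus went in opposite directions. With engagement 8 of the 10 were lower in CD4+ cells (3 with quantile normalization, 2 with edgeR) and 0 of 10 were called in the hybridoma. Of the cytokines and receptors that share the gamma chain, 3 of 7 rose and 3 fell in CD4+ cells, with Il4 (6.61), Il21 (4.19) and Il15ra (1.84) higher and Il7r (-2.13), Il4ra (-0.33) and Il9r (-0.65, not called with quantile normalization, edgeR or DESeq2) lower. In the hybridoma 1 of 5 rose (Il4, 2.01) and 1 fell (Il9r, -1.55). With engagement 5 of 7 were lower in CD4+ cells (4 with quantile normalization, 3 with edgeR) and 0 of 5 in the hybridoma.

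The genes whose group means followed a member most closely were described by Pearson's correlation over the groups of 1 system, which share doses and control libraries. In the hybridoma (12 groups) Gm11932, Rgs16 and Cdh23 were closest to Il2 (0.996 to 0.994), and Trib1, Tnfrsf9 and Eno3 to Il2rb (0.997 to 0.996). In CD4+ cells (10 groups) Prelid2, Ncl and Syce2 were closest to Il2 (0.996 to 0.994), Utp11l, Serbp1 and Pigw to Il2ra (0.998 to 0.997), and Suv420h1, Wdtc1 and Gabbr1 to Stat5b (0.983 to 0.980).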

How the data were processed

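CAGE tags were counted per start cluster in 26 hybridoma and 22 CD4+ T cell libraries; the deposited values are RPM (reads per-million), in which the authors scaled each library to its own total. Per the submitters' processing notes, the tools include BWA 0.7.12 and HISAT2 2.0.5 and the build is mm9; their roles are not given in the sources used here. Clusters were summed per gene symbol. Clusters without a symbol (4477 and 3643) or marked for several genes (356 and 371) stayed out of the sums.

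The test was limma 3.58.1 (R 4.3.3) on values as log2(RPM + 1), for genes that reached 1 RPM in 2 libraries or more. Each dose and engagement group had its own mean and all libraries of a system shared the spread, and p-values were Benjamini-Hochberg adjusted over all genes tested. Low values were whole multiples of 1 tag (0.0507 to 0.128 RPM and 0.0438 to 0.226 RPM), and 99.983% or more came within 0.1 tag of a whole number in every library. Recovered tags were tested with edgeR 4.0.16 and DESeq2 1.42.0 as alternatives. Other alternatives were a pseudocount of 0.25, other filters, quantile normalization, a B cell marker covariate, replicate blocks and leaving out each library. The fits were checked on simulated data. Floors (3 tags) cover counting error only, and the interval of a difference comes from the spread between libraries.

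Same-numbered hybridoma libraries with and without engagement deviated together (correlations 0.256 to 0.759 over 13 pairs), so blocked values are given where they change a call. In CD4+ cells the correlations were lower (0.013 to 0.255 over 11 pairs), and the numbers were not taken as pairs. The highest of these were close to the lowest in the hybridoma, so pairing in CD4+ cells is not settled. In groups of 2 libraries both pairs give the same value by construction. Promoter sequences are RefSeq's on GRCm38.p6, matched by symbol; no coordinates were converted between builds. The genes described and the pathway and marker lists were chosen with earlier results of these data known. Genes of likeness are the 3 with the highest correlation for each member whose group means span at least 1 on the log2 scale.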

Additional observations from a re-analysis of the deposited data

Results flagged for a closer look

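Changes that differed between the systems or between doses by a test of the difference itself are listed here. On the log2(RPM + 1) scale the change of Il2 from dose 0 to the top dose was 1.63 larger in CD4+ cells than in the hybridoma (limma adjusted p = 9.33e-06). As a ratio without engagement the order was the other way. It was at least 84.3-fold in the hybridoma, where dose 0 was at 0 tags, and 51.0-fold in CD4+ cells. For Il2rb the difference between systems was -2.95 (adjusted p = 1.16e-09), with a rise in the hybridoma and a fall in CD4+ cells. For Stat5a it was 0.63 (adjusted p = 0.0246), and its mean engagement difference differed by -0.54 (adjusted p = 0.00506).

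The engagement difference of Stat5b in CD4+ cells at 10000 ng/ml differed from that at dose 0 by 0.96 (limma adjusted p = 0.0115), where the median of all genes was 0.24. It was not called with quantile normalization (0.0534), with which 244 genes were higher and 201 lower against 1522 and 78 in RPM, or with edgeR (0.0705), nor without library 2 of dose 0, unengaged (0.0531) or engaged (0.0581).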

How the results depend on the processing

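Over 20 results of single members (the change at the top dose and the mean engagement difference), 424 alternatives were computed, and 395 kept both the direction and the side of the threshold, 22 lost the call, 6 gained one and 1 turned the direction. The last was Stat5a in CD4+ cells at the top dose, at -0.016 with quantile normalization. Of the 424 alternatives, 246 left out 1 library, and 238 of these stayed the same. The other 178 were changes of method or setting, and 157 of these stayed the same. The number of members called with engagement in the hybridoma was 1, against 0 with edgeR, 0 with DESeq2 and 2 with the replicate block of same dose and number, an alternative chosen after seeing the data that called 201 genes higher and 456 lower, against 6 and 88. In CD4+ cells it was 6, where 4205 of 10217 genes were called lower, against 3 with edgeR (1335 genes lower) and 3 with DESeq2 (1274 genes lower). Leaving out 1 library gave 5 to 6 and 1 to 1 members called with engagement in CD4+ cells and the hybridoma, and 4 to 5 and 2 to 4 with stimulation. With the replicate number as a block in CD4+ cells, where same-numbered libraries deviated together less than in the hybridoma, Il2rg at the top dose was -0.592 (limma adjusted p = 0.0391). Leaving out both dose 0 libraries of number 2 in the hybridoma, which was added after seeing the data, gave -0.329 (0.322) for Stat5a. Adding clusters marked for several genes to each gene was not run, as the tables name no genes there. Depth limits Il2 in the hybridoma below 100 nM, where a group at 0 tags has a floor of 0.108 RPM at dose 0, and Il2rg.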
